A study of Mus musculus with 6 samples.

Results

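The genes described here are 10 immediate early response genes, taken by symbol from a table of 27998 gene symbols: Fos, Fosb, Jun, Junb, Jund, Egr1, Atf3, Ier2, Zfp36 and Dusp1. All 10 symbols were found, and 8 of them passed the filter on low counts over the summed cells. Fosb and Atf3, with 20 and 23 molecules in the whole data set, did not. The libraries hold germ cells of mouse testes at embryonic day 14.5, sorted by fluorescence for tdTomato, a red fluorescent protein, and sequenced one cell at a time from the 3′ ends of transcripts on the 10x Genomics platform. The 3 control samples carry the genotype wildtype, and the 3 cKO samples the genotype Rb1 cKO, in which the retinoblastoma gene Rb1 was knocked out conditionally. All 6 are male and on a mixed C57/B6 and 129 background. The Cre driver, the deleted exon and whether a sample is 1 animal or a pool are not given in the sources used here, so each p-value is set against sample-to-sample spread that may be only technical. Values are unique molecular identifiers (UMIs, each standing for 1 captured transcript), given as CPM, the counts scaled to a common library total.

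Immediate early genes are switched on within minutes of a stimulus, without new protein synthesis, by factors that already sit on their promoters. Growth factors acting through the ERK kinases, calcium and cyclic AMP signals, and many kinds of stress all switch them on. Most of the proteins are transcription factors: the Fos and Jun families pair to form AP-1, and Egr1 and Atf3 bind sites of their own. Others end the response, such as Zfp36, which speeds the decay of AU-rich messages, and Dusp1, a phosphatase of MAP kinases. Because enzymatic dissociation and sorting can also induce them, these genes are widely used as a gauge of handling in single-cell data.

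Stretches just upstream of 3 members are shown because each holds, in capitals, a known type of element for fast induction or for placing the start site. They come from RefSeq (GRCm38.p6), run 5′ to 3′ on the gene's strand, and end at the annotated start site or, for Dusp1, where a GENCODE exon begins.
Fos: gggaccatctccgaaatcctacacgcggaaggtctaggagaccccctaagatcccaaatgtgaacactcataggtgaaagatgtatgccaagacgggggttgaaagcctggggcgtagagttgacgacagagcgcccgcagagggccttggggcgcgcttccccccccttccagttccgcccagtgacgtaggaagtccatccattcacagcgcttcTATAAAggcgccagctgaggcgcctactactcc
Jun: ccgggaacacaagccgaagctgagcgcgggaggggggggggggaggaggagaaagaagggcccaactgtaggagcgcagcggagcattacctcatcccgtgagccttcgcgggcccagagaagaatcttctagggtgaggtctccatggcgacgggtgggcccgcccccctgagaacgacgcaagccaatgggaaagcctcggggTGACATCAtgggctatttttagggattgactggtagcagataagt
Dusp1: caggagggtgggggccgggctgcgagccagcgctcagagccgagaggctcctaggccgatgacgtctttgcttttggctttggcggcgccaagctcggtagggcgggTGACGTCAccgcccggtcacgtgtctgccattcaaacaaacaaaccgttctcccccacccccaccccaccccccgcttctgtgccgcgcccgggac
The Fos stretch is chr12:85473640-85473889 on the plus strand, and its capitals mark TATAAA, which begins 33 bases before the start site. The Jun stretch is chr4:95052223-95052472 on the minus strand, and its capitals mark TGACATCA, a variant AP-1 site that begins 45 bases before the start site. The Dusp1 stretch is chr17:26508520-26508722 on the minus strand, and its capitals mark TGACGTCA, the full cyclic AMP response element, which begins 143 bases before the start site.

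Of the 10 members, 8 were matched in the RefSeq promoter table, with 1 window each from 250 bases before to 50 bases after the start site. Egr1 and Ier2 had no entry and were not searched, nor was any site outside the windows, so absence here does not mean that a gene lacks a site. The Jund window, chr8:70697489-70697788, ends before the GENCODE start of Jund at 70698949, so the 2 annotations place its start differently. Both strands were searched. TGACGTCA was in 1 of the 8 windows, that of Dusp1, and in 1.79% of all 32851 windows of this length. TGACATCA was in 1 member, Jun, and in 3.62% of all windows. The CArG box, the site of serum response factor, was in 1 member, Zfp36, where it begins 58 bases before the start site, and in 1.63% of all windows. TATAAA was in 2 members, Fos and Junb, and in 13.6% of all windows, and in Junb it lay at the start site itself. The GC-box core GGGCGG was in 6 of the 8 and in 35.7% of all windows. The AP-1 consensus TGANTCA was in 0 of the 8 and in 7.81% of all windows. Such matches describe letters, not bound sites.

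In the GENCODE annotation of the same coordinates, Jun (chr4:95049034-95052222), Jund (chr8:70698949-70700616) and Ier2 (chr8:84661331-84662852) are genes of 1 exon. Fos (chr12:85473890-85477273) has 3 or 4 exons, depending on the transcript. Genes on the opposite strand overlap Jun (Junos), Junb (Prdx2), Jund (Gm11175), Atf3 (Gm24748), Zfp36 (Gm44710) and Dusp1 (Ergic1 and Gm8225). Whether the counting used strand is not given in the sources used here, so reads of these pairs may not be told apart. On the same strand, AC122252.4 and AC122252.1 overlap Dusp1, where strand cannot separate reads.

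The 6 libraries held 430 to 1354 kept cells and 7598511 to 17323152 UMIs. Rb1, the targeted gene, stood at 7.13 to 10.3 CPM in the controls and at 3.35 to 3.73 CPM in the cKO libraries, on the side its label gives. Summed germ-cell markers reached 8365 to 9412 CPM. Markers of other cells were present at low levels. Endothelial markers summed to 51.6 to 75.1 CPM, and erythroid markers to 6.15 CPM in cKO 1 and 21.4 to 33.2 CPM elsewhere. Macrophage markers summed to 50.5 CPM in control 2 and 1.28 to 8.25 CPM elsewhere, and Sertoli markers to 25.5 CPM in control 3 and 5.57 to 11.7 CPM elsewhere. Across libraries, 9 barcode sequences recurred, in 18 cells.

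Together the members gave 15503 UMIs, 0.0212% of all UMIs in the kept cells. Jund supplied 38.8% of them, Ier2 36.9% and Dusp1 10.9%. The genes best known as marks of acute induction supplied little: Jun 3.81%, Junb 3.19%, Egr1 2.88%, Fos 1.95%, Zfp36 1.31%, Atf3 0.148% and Fosb 0.129%. These are shares of captured 3′ ends and are not divided by transcript length.

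No member was called between cKO and control by edgeR's quasi-likelihood test on the summed counts. The 3 control and 3 cKO values overlapped for each of the 8 members tested. Over all genes the same test called 0 of 11540, a background of 0%, and its smallest adjusted p was 0.415. Rb1, the targeted gene, was thus not called either, although its groups did not overlap. The lack of a call therefore does not show equal levels. At an unadjusted p under 0.05 the background was 3.51% of genes, and 0 of the 8 members reached it. Groups that do not overlap were found for 8.93% of all genes. DESeq2, run as an alternative, also called 0 of the 8. Of the 8 members, 4 had a positive and 4 a negative fold change, beside 50.1% and 49.9% of all genes, with a median of 0.02 on the log2 scale beside 0.00 over all genes tested. Benjamini-Hochberg adjusted p ranged from 0.994 to 0.995 for the 8 members. In sums over cells, fewer cells with a transcript and less RNA per cell cannot be told apart.

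**Figure D1:**
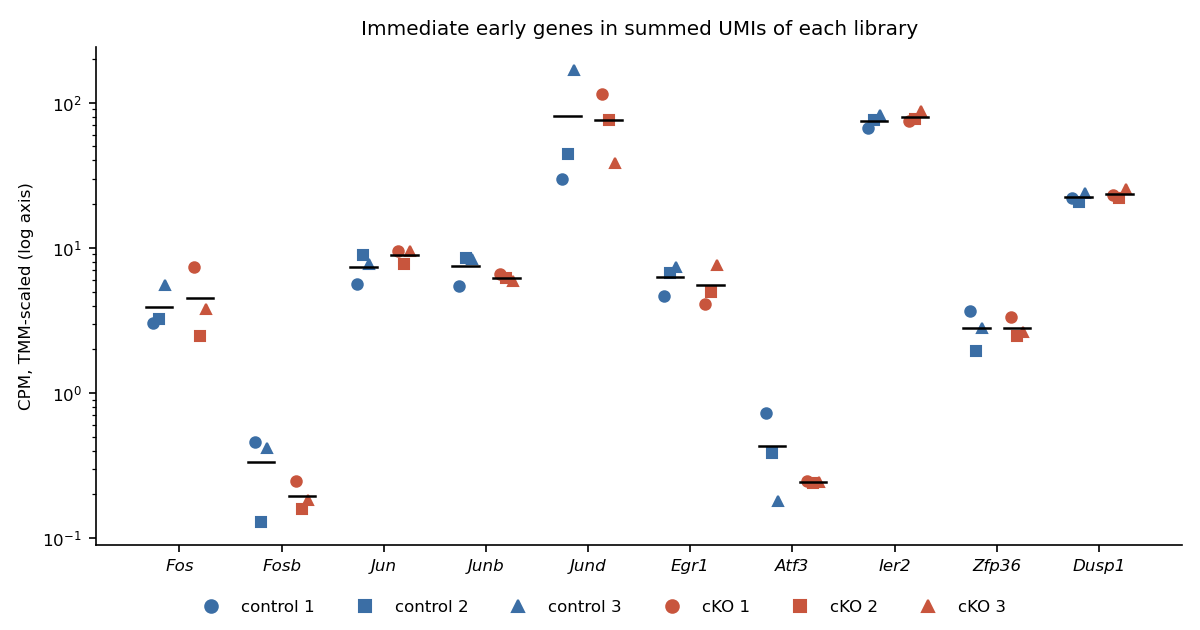
Level of each of the 10 members in each library, as TMM-scaled CPM of summed UMIs on a log axis. Points are libraries, bars are group means. Jund is spread over the widest range among the 8 members tested, from 29.6 to 169 CPM, while Ier2 and Dusp1 keep the 6 libraries close together.

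Fos, whose protein forms AP-1 only with a Jun partner, stood at 3.02, 3.23 and 5.51 CPM in control 1, 2 and 3 and at 7.33, 2.46 and 3.77 CPM in cKO 1, 2 and 3. The cKO group held both the highest and the lowest library. The log2 fold change of cKO over control was 0.12 ± 0.42 (SE). In cKO 1, 24 of the 59 Fos UMIs came from 4 cells with 5 or more each, and no cell of another library reached 5. Without those 4 cells, a class chosen after their values were seen, cKO 1 would stand at 4.52 CPM, against 7.56 CPM with them, both without TMM scaling. On that scale the controls ran from 3.02 to 5.31 CPM, so 4.52 CPM lay inside the control range. Fosb, a close relative of Fos, had 5, 1 and 7 UMIs in control 1, 2 and 3 against 2, 2 and 3 in cKO 1, 2 and 3, too few to test.

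Jun, the partner that can also pair with itself, stood at 5.67, 8.91 and 7.73 CPM in the controls and at 9.56, 7.69 and 9.54 CPM in the cKO libraries. The groups overlapped, since control 2 and control 3 lay above cKO 2, and the log2 fold change was 0.27 ± 0.19 (SE). Junb, a weaker activator that can oppose Jun, stood at 5.49, 8.52 and 8.33 CPM in the controls and at 6.58, 6.18 and 5.95 CPM in the cKO libraries. Control 1 lay below all 3 cKO libraries and the other two controls above them, and the log2 fold change was -0.26 ± 0.20 (SE).

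Jund, the Jun family member that cells usually keep on without a stimulus, varied between libraries more than it did between groups. It stood at 29.6, 44.3 and 169 CPM in control 1, 2 and 3 and at 115, 76.2 and 38.6 CPM in cKO 1, 2 and 3. The highest and the lowest library were both controls, 5.70-fold apart. Among 4938 genes averaging 20 CPM or more, the median of this ratio was 1.23, and 0.304% of the genes had a larger one than Jund. For Ier2 the ratio was 1.32 and for Dusp1 1.23, and 30.8% and 52.2% of these genes had larger ones. A ratio of at least 3 was reached by 54 of the 4938 genes, and 14 of them, Jund included, had the same order of the 6 libraries as Jund. The log2 fold change of Jund was -0.11 ± 0.85 (SE), and it was -0.51 without cKO 1. It turned positive without control 3 (1.04) and without cKO 3 (0.22), so its sign was not settled. Sertoli markers were also highest in control 3, at 25.5 CPM. Jund levels without the cells carrying such markers are given below, and the part of other cell types in the Jund values was not tested. In the library highest in Jund, control 3, median depth was 12749 UMIs per cell, and in the library lowest in Jund, control 1, it was 13892.

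Egr1, a zinc finger factor induced through ERK and serum response factor, stood at 4.67, 6.71 and 7.37 CPM in the controls and at 4.10, 4.99 and 7.59 CPM in the cKO libraries, with a log2 fold change of -0.15 ± 0.26 (SE). The cKO libraries held both the lowest and the highest value. Atf3, a factor of the integrated stress response, had 8, 3 and 3 UMIs in control 1, 2 and 3 against 2, 3 and 4 in cKO 1, 2 and 3 and was not tested. Ier2, a small nuclear protein, stood at 67.0, 76.3 and 81.9 CPM in the controls and at 75.4, 77.6 and 88.1 CPM in the cKO libraries. Its log2 fold change was 0.10 ± 0.10 (SE), and the groups overlapped.

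The groups also overlapped for both genes that end the response. Zfp36 stood at 3.66, 1.94 and 2.82 CPM in the controls and at 3.35, 2.46 and 2.61 CPM in the cKO libraries, with a log2 fold change of -0.04 ± 0.28 (SE). All 3 cKO libraries lay within the control range. Dusp1 stood at 22.0, 20.8 and 23.9 CPM in the controls and at 23.2, 22.1 and 25.5 CPM in the cKO libraries, with a log2 fold change of 0.08 ± 0.11 (SE). Its SE was below those of Fos, Jun, Junb, Jund, Egr1 and Zfp36 and close to that of Ier2.

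**Figure D2:**
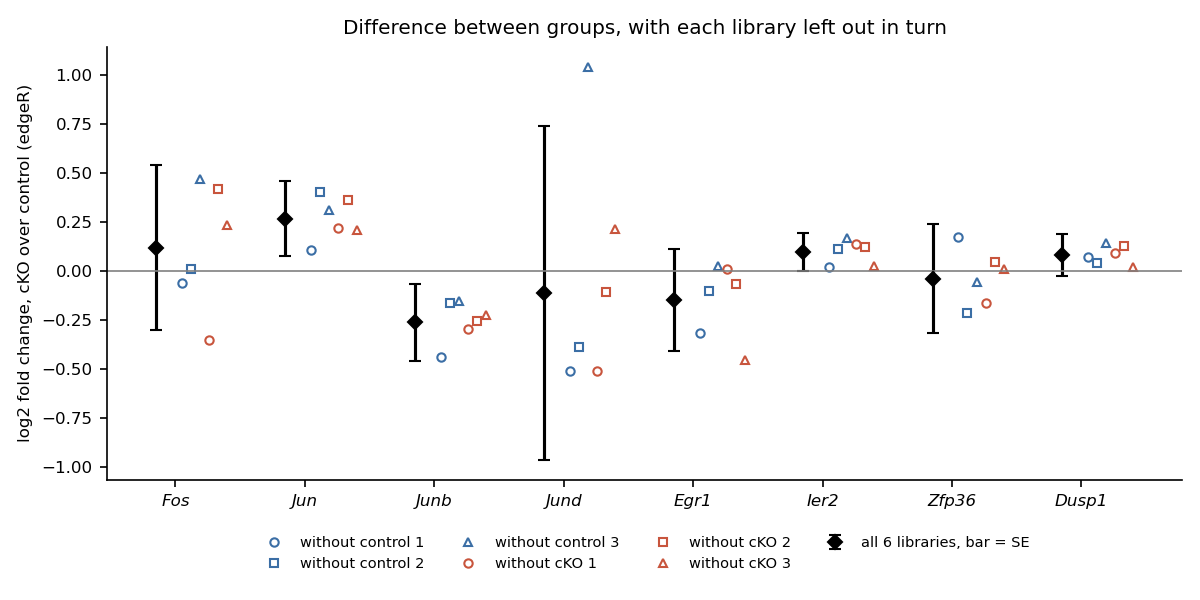
Log2 fold change of cKO over control for the 8 members tested with edgeR, with all 6 libraries (black, bar = SE) and with each library left out in turn (open symbols). For Jund the values run from -0.51 without cKO 1 to 1.04 without control 3, and Ier2 and Dusp1 stay near 0.

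Summed over the 10 members, the level was 142, 175 and 296 CPM in control 1, 2 and 3, against 253, 200 and 178 CPM in cKO 1, 2 and 3. Jund made up 20.8% of the members' UMIs in control 1 and 55.0% in control 3. Without Jund the sum of the other 9 was 113, 129 and 133 CPM in control 1, 2 and 3, against 134, 124 and 141 CPM in cKO 1, 2 and 3, which is 125 ± 10.9 against 133 ± 8.29 CPM (SD, n = 3 each). The groups overlapped on both sums.

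Genes whose levels followed the summed members were sought over 26 sums of a library within a cluster, among 4929 genes, by Spearman's rho. The sums share libraries, cells of 1 sort and depth, so rho is a description. The 5 non-members most like the 10 summed members were Ppp2ca (0.89), Smarca5 (0.88), Bod1 (0.87), Sfpq (0.86) and Cdv3 (0.85), and Jund itself had 0.87 with the sum that contains it. Ppp2ca stood at 60.5, 67.1 and 197 CPM in control 1, 2 and 3 and at 97.0, 81.8 and 60.9 CPM in cKO 1, 2 and 3, again highest in control 3. Taking Jund alone, a pattern added after seeing the data, the 5 genes were Ptov1 (0.93), Hras (0.92), Bri3 (0.92), Cdv3 (0.90) and Ttc19 (0.89). Ptov1 stood at 56.6, 85.0 and 325 CPM in control 1, 2 and 3 and at 138, 100.3 and 60.5 CPM in cKO 1, 2 and 3. Ier2 had a rho of only 0.09 with Jund, and Jund one of 0.17 with the sum of the other 9 members.

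The authors' table puts each cell in 1 of 5 clusters, numbered 0 to 4 with no names. The leading genes were S-phase and G1/S genes in cluster 0 (Ccne1, Rrm2), mitotic genes in cluster 1 (Cdc20, Ccnb1, Hmmr) and linker histone genes in cluster 2 (Hist1h1e, Hist1h1d). Cluster 3 was led by Pf4, whose 357 UMIs there all lay in 1 cell of control 2, and by Rpgrip1, and cluster 4 by Dcxr, Mcam, Phlda3 and Btg2. They held 2210, 1863, 640, 343 and 98 cells. Because the clusters were made from the same cells and genes, levels by cluster are described and not tested, as means ± SD over the 6 libraries in CPM without TMM scaling.

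Fos stood at 5.20 ± 2.73 CPM in cluster 0 and 2.19 ± 0.888 CPM in cluster 1, and it was higher in cluster 0 in 6 of 6 libraries. Egr1 had the same order, 7.38 ± 2.61 CPM in cluster 0 against 3.24 ± 0.973 CPM in cluster 1, in 6 of 6 libraries. Fosb, sparse as it was, had 14 UMIs in cluster 0, with at least 1 in each library, and 1 UMI in cluster 1. Fosb was thus also higher in cluster 0 in 6 of 6 libraries, but in control 2, cKO 1 and cKO 2 this rests on 1 UMI against 0. Cluster 0 was above cluster 1 for Ier2 in 5 of 6 libraries, for Jun, Junb and Dusp1 in 4, for Atf3 in 3 and for Jund in 2. The share of all genes with such an order in 6 of 6 libraries was not computed, so these counts are not read as a trait of the members. For Zfp36 the means had the other order, 2.45 ± 0.637 CPM in cluster 0 and 2.98 ± 1.12 CPM in cluster 1. Cluster 0 was still the higher for Zfp36 in 4 of 6 libraries.

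Jun followed another order. It stood at 12.1 ± 3.03 CPM in cluster 2, led by histone genes, against 7.15 ± 1.98 CPM in cluster 0 and 6.40 ± 1.37 CPM in cluster 1, and cluster 2 was above both in 6 of 6 libraries. Junb went the other way, with 3.58 ± 1.91 CPM in cluster 2 and 7.46 ± 1.54 CPM in cluster 0, which was above cluster 2 in 6 of 6 libraries. The Jun relatives therefore had opposite orders between these clusters, while Jund, at 78.9 ± 52.5 CPM in cluster 0 and 66.2 ± 45.1 CPM in cluster 2, had spreads between libraries wider than the gap. Ier2 stood at 84.2 ± 6.57 CPM in cluster 0, 70.9 ± 9.06 CPM in cluster 1 and 64.2 ± 14.7 CPM in cluster 2, with cluster 0 above cluster 2 in 6 of 6 libraries.

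The library pattern of Jund recurred in each cluster. Control 3 was the highest library in all 5 clusters, and the highest library was 5.83-fold, 5.65-fold, 5.51-fold and 5.18-fold above the lowest in clusters 0, 1, 2 and 3. Dusp1 stood near 20 to 27 CPM in each library of clusters 0, 1 and 2 and spread out in cluster 3.

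**Figure D3:**
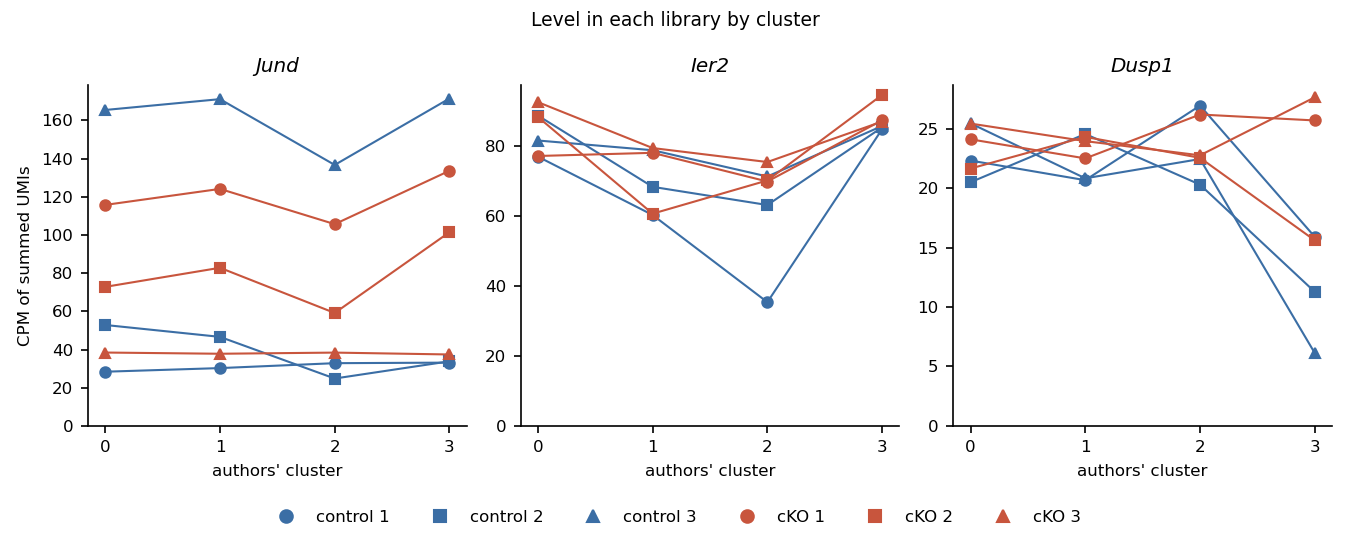
CPM of Jund, Ier2 and Dusp1 in clusters 0 to 3, one line per library. The Jund lines keep nearly the same order across clusters, with control 3 at the top, while the Ier2 and Dusp1 lines cross.

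In cluster 3, Jun stood at 20.3 ± 13.1 CPM, Junb at 11.7 ± 6.13 CPM, Fos at 9.23 ± 5.54 CPM and Ier2 at 87.5 ± 3.63 CPM. Fos was above clusters 0 and 1 there in 6 of 6 libraries, and Ier2 above clusters 1 and 2 in 6 of 6. Counts were thin, with 66 Jun, 45 Junb and 33 Fos UMIs in 343 cells. Control 3 gave 25 cells with a median of 4654 UMIs, and its Fos value in this cluster rests on 3 UMIs.

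Part of the signal in cluster 3 lay in cells that carried markers of other testis cell types. Over all clusters, 40 cells carried at least 3 UMIs of 1 of 6 marker lists (Sertoli, Leydig, interstitial stromal, macrophage, peritubular myoid, and mesonephric or surface epithelial), with 2, 4 and 16 of them in control 1, 2 and 3 and 6, 9 and 3 in cKO 1, 2 and 3. The class and its threshold were chosen after seeing the data. Of these cells, 12 lay in cluster 3, and they held 36 of its 66 Jun, 18 of its 45 Junb and 14 of its 33 Fos UMIs. Jun stood at 198 CPM in the 12 cells and at 7.15 CPM in the other 331 cells of cluster 3, Fos at 76.8 against 4.53 CPM, Junb at 98.8 against 6.44 CPM and Egr1 at 43.9 against 5.24 CPM. Ier2 stood at 165 against 84.9 CPM. These are sums over the 12 cells and not levels of a typical one: 4 cells with 5 or more Jun UMIs held 34 of the 36, and the other 8 held 2. For Junb 2 cells held 16 of the 18 UMIs, and for Fos 1 cell held 6 of the 14. Dusp1 had only 2 UMIs in the 12 cells. In clusters 0, 1 and 2 the 13, 11 and 4 cells of the same class held 0 Fos, 0 Egr1 and 2 Jun UMIs in all. They held 4, 0 and 0 Junb UMIs and 0, 1 and 2 Zfp36 UMIs.

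Among all kept cells, 6 of the 10 with most UMIs of the 8 members other than Jund and Ier2 carried such markers, and the same number lay in cluster 3. The cell at the top, from cKO 1, held 11 Jun, 9 Junb, 6 Fos and 4 Zfp36 UMIs beside 10 UMIs of myoid and 101 of germ-cell markers. Next came a cell of control 2 with 12 Jun UMIs, 39 UMIs of interstitial and 1 of germ-cell markers. Another cell of control 2 held 7 Junb UMIs and 362 UMIs of macrophage markers beside 1 of germ-cell markers. The cell with most Fos UMIs, 8, came from cKO 1 in cluster 0 and held 128 germ-cell marker UMIs and 0 of the 6 other lists. None of the 10 was called a doublet.

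Without the cells carrying such markers, Jun in cluster 3 stood at 6.80 ± 4.32 CPM, Fos at 4.76 ± 2.40 CPM and Junb at 7.52 ± 4.92 CPM, near their levels in cluster 0. The order of cluster 3 over the others was then lost in some libraries: Fos was above cluster 0 in 3 of 6 and above cluster 1 in 5 of 6, and Ier2 was above clusters 1 and 2 in 5 of 6 each. Among clusters 0, 1 and 2, some orders still held in 6 of 6 libraries. Cluster 0 was above cluster 1 for Fos, Fosb and Egr1 and above cluster 2 for Junb and Ier2. For Jun, cluster 2 was above clusters 0 and 1. Others did not: Fos was above cluster 2 in cluster 0 in 5 of 6, and Jun above cluster 1 in cluster 0 in 4 of 6. Jun was 12.3 ± 3.12 CPM in cluster 2 and 7.18 ± 1.94 CPM in cluster 0. Fos was 5.23 ± 2.75 CPM in cluster 0 and 2.20 ± 0.903 CPM in cluster 1. Jund in cluster 0 was 165 CPM in control 3 and 28.0 CPM in control 1, against 165 and 28.4 CPM with all kept cells. Its log2 fold change over all cells was -0.11 both with and without these cells.

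**Figure D4:**
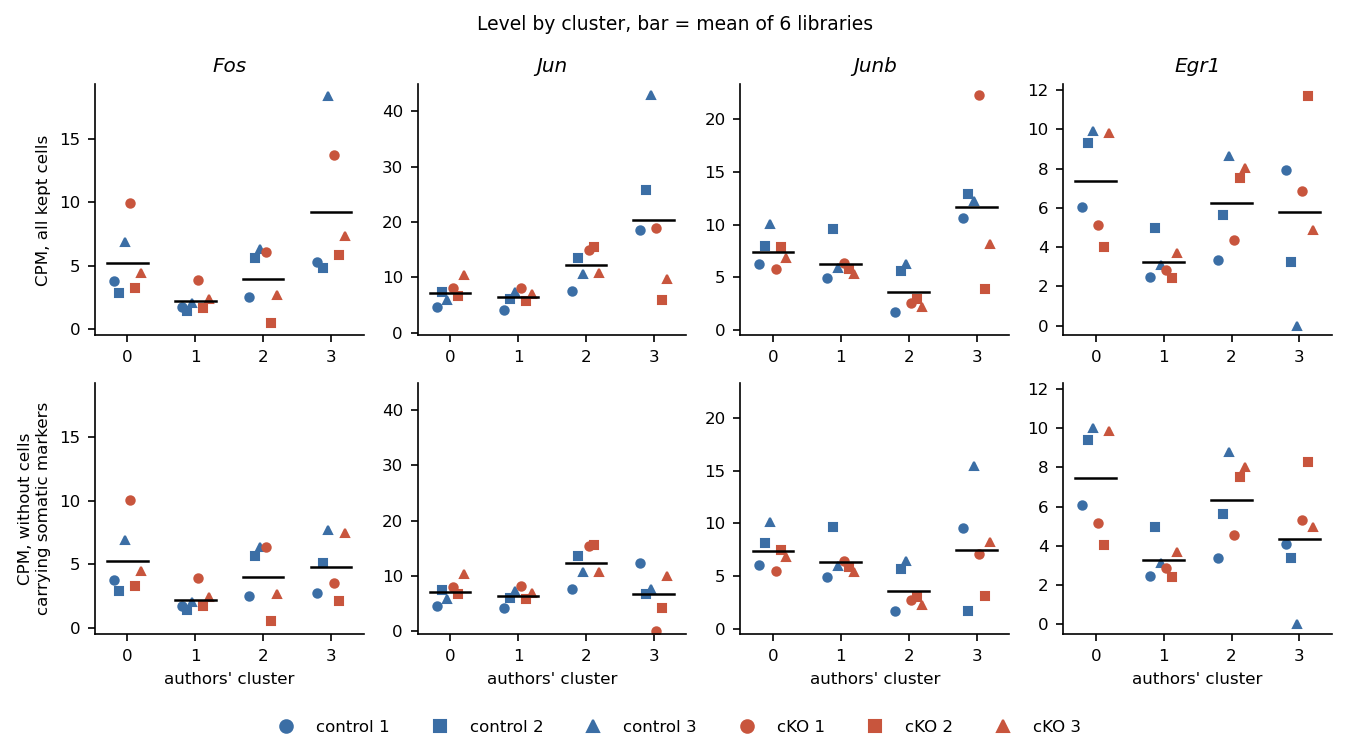
CPM of Fos, Jun, Junb and Egr1 by cluster and library, with all kept cells (top) and without the 40 cells carrying markers of other testis cell types (bottom), bars giving the mean of 6 libraries. Jun in cluster 3 goes from 20.3 to 6.80 CPM, while clusters 0, 1 and 2 hardly move.

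Within clusters 0, 1, 2 and 3, edgeR's quasi-likelihood test called no tested member between cKO and control. The background was 0% of genes called in each. Fosb and Atf3 were tested in none of them, Fos in cluster 0 only, Junb and Zfp36 in clusters 0 and 1, and Egr1 in clusters 0, 1 and 2. The members tested in cluster 3 were Jun, Jund, Ier2 and Dusp1. Of these, Jun and Dusp1 passed an unadjusted p under 0.05 there, as did 3.37% of 5996 genes. Jun stood there at 19.1, 26.2 and 45.9 CPM in the controls and at 18.8, 5.97 and 10.4 CPM in the cKO libraries, TMM-scaled. All 3 cKO values lay below the controls, as did those of 4.49% of the genes, and the log2 fold change was -1.23 ± 0.43 (SE, unadjusted p = 0.01004, adjusted p = 0.9997 in edgeR). The test of whether the cKO effect differed between clusters gave Jun an unadjusted p of 0.000485 and an adjusted p of 0.711 in edgeR, where 4.73% of 10029 genes had an unadjusted p under 0.05 and 0% were called. Leaving out 1 library in turn moved that adjusted p between 0.137, without cKO 1, and 0.9997. Without the cells carrying markers of other cell types it was 0.997, and Jun no longer passed the filter in cluster 3.

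Dusp1 in cluster 3 stood at 16.4, 11.4 and 6.56 CPM in the controls and at 25.7, 15.9 and 29.4 CPM in the cKO libraries. Control 1 lay just above cKO 2, and the log2 fold change was 0.83 ± 0.39 (SE, unadjusted p = 0.0463, adjusted p = 0.9997 in edgeR). Without the cells carrying other markers the groups no longer overlapped, at 15.4, 12.02 and 8.20 against 26.6, 16.9 and 29.1 CPM, as for 5.15% of the 5907 genes tested in that fit, with a log2 fold change of 0.85 ± 0.38 (SE, unadjusted p = 0.0356, adjusted p = 0.9997 in edgeR). The control 3 value rests on 1 UMI in cluster 3, where 3 UMIs would have been 18.4 CPM over all its cells there, above the 15.6 CPM of cKO 2 on the same scale. In that fit 3.44% of genes had an unadjusted p under 0.05. Cluster 4 had at least 20 cells in only 1 library of each group and was not tested. There the pooled levels were 10.4 CPM for Fos, 14.4 CPM for Egr1 and 103 CPM for Ier2, from 13, 18 and 129 UMIs.

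To set cells of unequal depth side by side, each cell was thinned to 10000 UMIs, which left out 456 shallower cells and kept 4698. A UMI of Jund was then found in 51.0% of cells, of Ier2 in 49.6% and of Dusp1 in 19.6%. The others were found in few cells: Jun in 7.22%, Junb in 6.32%, Egr1 in 4.85%, Fos in 3.24%, Zfp36 in 2.49%, Atf3 in 0.277% and Fosb in 0.234%. The sort was for germ cells, and the few cells with markers of other types are too few to serve as a floor, so genes of other cell types were used instead. The embryonic globin gene Hbb-y was found in 7.58% of the same cells, the Sertoli genes Cst9 and Amh in 3.53% and 2.64%, and the macrophage gene Pf4 in 0.255%. Hbb-y was the highest of the erythroid, Sertoli and macrophage genes examined. The next, Hbb-bs, was found in 5.41%, below Jun and Junb, and the erythroid gene Alas2 in 0.0851%. The shares of Jun, Junb, Egr1, Fos, Zfp36, Atf3 and Fosb were thus below that of Hbb-y. Some of them lay above those of most such genes. They are not read as shares of expressing cells. Without thinning, the shares were 60.9% for Jund, 60.9% for Ier2, 26.5% for Dusp1, 9.70% for Jun and 4.66% for Fos.

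By library, the thinned share of cells with a Jund UMI was 26.0%, 36.7% and 81.4% in control 1, 2 and 3, against 69.9%, 53.7% and 31.7% in cKO 1, 2 and 3. The exact 95% binomial interval was 22.9% to 29.3% in control 1 and 79.0% to 83.6% in control 3, and it covers counting error only. The Ier2 share ran from 43.8% to 54.7% and the Dusp1 share from 16.8% to 20.5%. The library differences of Jund were thus also present at equal depth per cell.

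**Figure D5:**
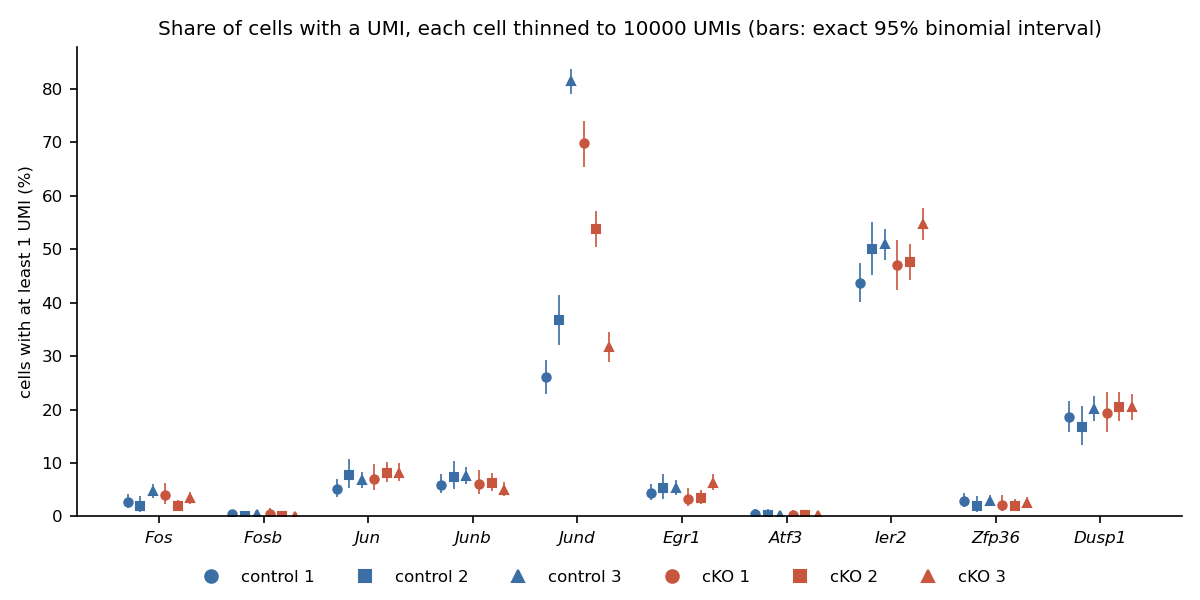
Share of cells with at least 1 UMI of each member in each library after thinning each cell to 10000 UMIs, with exact 95% binomial intervals. Jund runs from 26.0% to 81.4% of cells, and Ier2 and Dusp1 stay within 43.8% to 54.7% and 16.8% to 20.5%.

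How unevenly the UMIs fell over cells differed between Ier2 and Jund, which have like mean counts per cell. The variance over the mean, as the median of 6 libraries, was 1.27 for Ier2 and 1.04 for Jund, beside medians of 1.03 and 1.04 among genes of similar mean. Jun had 1.24 against 1.01 for genes of its mean, Junb 1.17 against 1.01, Egr1 1.11 against 1.01 and Fos 1.08 against 0.996. Fos reached 3.29 in 1 library. Dusp1 had 1.08 against 1.02, Zfp36 0.982 against 0.983, Fosb 0.999 against 0.999 and Atf3 0.999 against 0.998. Single cells with many UMIs weigh on such ratios. Before thinning, all 4 cells with 5 or more Jun UMIs lay in cluster 3 and carried markers of other testis cell types. The same held for the 2 cells with 5 or more Junb UMIs. Ratios without such cells were not computed, so they are not read as spread among germ cells alone.

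Few cells held several of the sparse members. Among the 4698 thinned cells, 10 had UMIs of 3 or more of the 7 members other than Jund, Ier2 and Dusp1, and 78.3% had none. In cells with an Egr1 UMI, Ier2 was found in 60.1% of 228 cells, against 49.1% of those without, and the difference had this direction in 6 of 6 libraries. In cells with a Fos UMI, Ier2 was found in 56.6% of 152 cells against 49.4%, again in 6 of 6 libraries. Jun was found in 11.4% of cells with Egr1 and in 7.002% of those without, in this direction in 5 of 6 libraries. Dusp1 stood at 19.1% in cells with a Fos UMI against 19.6% in those without. Jun and Jund went the other way, with Jund in 47.2% of cells with a Jun UMI and in 51.3% of those without, lower in 6 of 6 libraries. Over the 27 pairings of Fos, Jun or Egr1 with each other member, 2 were higher in 6 of 6 libraries, 3 in 5, 7 in 4, 7 in 3 and 8 in fewer. Pairings of Fos, Jun and Egr1 among themselves are each counted in both directions, so these are not 27 distinct pairs. Fos with Jun and Fos with Egr1 were higher in 3 of 6. Cells of 1 library share their source, so these are descriptions without a test.

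The wider immediate early programme was described in the same way. Of 40 other immediate early genes, 27 were tested and 0 were called, with 11 positive and 16 negative fold changes and a median of -0.04. At an unadjusted p under 0.05 there were 4 of the 27, beside 3.51% of all genes, named here for that reason after their values were seen: Klf10 and Gadd45g with positive and Ier3 and Ier5l with negative fold changes. The 3 of the list with the highest levels were Btg1, an antiproliferative gene, Zfp36l2, a relative of Zfp36, and Nfkbia, an inhibitor of NF-kappaB. Btg1 stood at 55.1 ± 14.8 CPM in the controls and 60.5 ± 15.7 CPM in the cKO libraries, Zfp36l2 at 39.6 ± 9.42 and 39.8 ± 1.37 CPM, and Nfkbia at 33.8 ± 9.95 and 38.0 ± 4.22 CPM (SD, n = 3 each). Of 22 upstream kinases and factors, 21 were tested and 0 called, also at an unadjusted p under 0.05, with 8 positive and 13 negative fold changes. Map2k2, which encodes the kinase MEK2, stood at 228 ± 18.0 and 227 ± 6.29 CPM. Atf1, a relative of CREB, stood at 64.7 ± 13.1 and 68.2 ± 4.74 CPM.

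The feedback targets of ERK signalling, which report on the pathway more slowly than Fos and Egr1, were 10 genes, all tested and 0 called, with 2 of them, Etv4 and Dusp6, at an unadjusted p under 0.05, beside 3.51% of all genes. They had 3 positive and 7 negative fold changes and a median of -0.20 on the log2 scale, beside 0.00 over all genes. Etv5, Etv4 and Etv1, transcription factors downstream of FGF signalling, had the highest levels. Etv4 stood at 31.4, 33.2 and 37.4 CPM in the controls and at 25.7, 25.2 and 28.0 CPM in the cKO libraries, with all cKO values below the controls, as for 4.23% of all genes. Its log2 fold change was -0.37 ± 0.10 (SE, unadjusted p = 0.00484, adjusted p = 0.994 in edgeR). Etv5 stood at 72.6 ± 6.19 and 64.0 ± 9.90 CPM and Etv1 at 25.7 ± 6.73 and 22.5 ± 2.29 CPM (SD, n = 3 each), with overlapping groups.

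Stress programmes that run beside the immediate early response gave no call either. Of 15 heat shock genes, 14 were tested and 0 called, also at an unadjusted p under 0.05, which 3.51% of all genes reached. They had 10 positive and 4 negative fold changes and a median of 0.02. The chaperone genes Hsp90aa1, Hsp90ab1 and Hspa8 stood at 5602 ± 154, 4138 ± 173 and 3350 ± 79.4 CPM in the controls and at 5844 ± 239, 4174 ± 74.7 and 3308 ± 160 CPM in the cKO libraries. The 9 genes of the unfolded protein and integrated stress responses were all tested and 0 called. At an unadjusted p under 0.05 there was 1 of the 9, Sesn2, beside 3.51% of all genes. Their fold changes were positive for 4 and negative for 5. Among them Ddit4 stood at 107 ± 3.06 and 108 ± 17.2 CPM, Asns at 64.6 ± 10.2 and 55.3 ± 1.78 CPM, and Atf4 at 48.8 ± 3.17 and 48.4 ± 5.57 CPM (SD, n = 3 each).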

How the data were processed

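Single-cell RNA-seq of 3 control and 3 cKO samples was analysed. The authors deposited UMI counts as whole numbers per gene symbol and barcode, and a second table with each barcode's sample and cluster number. Cell Ranger, Seurat 3.0 and the build mm10 are named in the submitters' processing notes, without parameters. A barcode entered with 500 genes or more and less than 10% mitochondrial UMIs (5154 of 5160). Scrublet, run per library, called 160 cells (3.10%) doublets, which stayed in except in 1 alternative. Counts were summed per sample, or per sample and cluster with at least 20 cells, and tested with edgeR 4.0.16 (filterByExpr, TMM, robust quasi-likelihood fit, Benjamini-Hochberg adjustment over all genes tested, threshold 0.05). The effect of cluster on the cKO difference was tested with cluster by genotype terms and sample as a factor. Thinning drew UMIs without replacement with a fixed seed. Tests were tried first on simulated counts. Alternatives were DESeq2 1.42.0, RLE factors, no filter, a replicate block, each library left out, equal cell numbers, no doublets, all barcodes and thinned cells. Added after seeing the data were fits without cluster 3 and without cells carrying somatic markers.

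All 10 members are named in the comparison of cKO with control over all cells. Some descriptions by cluster, by cell and without thinning name only part of them. Of each further list, the 3 tested genes with the highest mean CPM are named. One of these genes is not reported here. Genes of those lists named for an unadjusted p, and those that follow Jund, were named after their values were seen. Members and lists were chosen with earlier results of these data known. CPM rests on the total UMIs of the kept cells, from 7598511 in control 2 to 17323152 in control 3, so precision differs between libraries. The fits call for at least 2 samples a group.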

Additional observations from a re-analysis of the deposited data

How the results depend on the processing

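No member was called in any of the 57 fits made over all cells or as alternatives within clusters. Over all cells, Jun, Junb, Ier2 and Dusp1 kept the sign of their fold change in each of 16 alternatives, which include both added ones. The sign of Jund turned positive without control 3 (1.04), without cKO 3 (0.22) and with the replicate block (0.24), and leaving out 1 library gave -0.51 to 1.04. Fos turned negative without control 1 (-0.06) and without cKO 1 (-0.35), with a range of -0.35 to 0.47 when 1 library was left out. Egr1 turned positive without control 3 (0.025) and cKO 1 (0.01), with a range of -0.45 to 0.025. Zfp36 turned positive with the replicate block (0.0090), with equal cell numbers (0.44) and without control 1 (0.17), cKO 2 (0.05) or cKO 3 (0.01), with a range of -0.21 to 0.17. The cause was not tested. Counts of genes called, 0 in each comparison with edgeR, rose with DESeq2 to 3 over all cells, and without the low-count filter to 6 over all cells and to 15, 8, 3 and 17 in clusters 0, 1, 2 and 3. Leaving out 1 library gave 0 to 4 over all cells, 0 to 2 in clusters 0, 1 and 2, 0 to 3 in cluster 3 and 0 to 24 for the difference between clusters. The values of 4 over all cells and 2 in clusters 0, 1 and 2 came without control 3, and those of 3 and 24 without control 1. For the difference between clusters the counts were 7 without control 3, 3 without cKO 1, 1 without cKO 2 and 3 without cKO 3, and in cluster 3 the count was 2 without control 3. With the replicate block the count was 0 over all cells and 1 in cluster 3. The deviations of same-numbered libraries from their group means correlated at -0.30, 0.36 and 0.16, so the numbers were not taken to pair them. Of 20 differences in the share of cells with a UMI, 18 moved by less than 1 SD without thinning or at 5000 UMIs; those of Junb (-2.47 percentage points) and Atf3 (-0.289) moved further without thinning. Fosb and Atf3 were too sparse to test, and the cluster 3 values of control 3 rest on 25 cells.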
